A study of Mus musculus with 24 samples.

Results

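The comparison described here is the strain difference at 6 weeks of age in male mouse hypothalamus: hypertensive BPH/2J mice minus normotensive BPN/3J mice, both inbred. The rule took every probe set of an Affymetrix Mouse Gene 1.0 ST array that the platform annotation pairs with 1 gene symbol and kept the probe set with the highest mean for each gene, which gave 19937 genes from 34760 probe sets. It used 12 of the 24 arrays of the study, 6 male BPH/2J and 6 male BPN/3J mice of 6 weeks, each array from the whole hypothalamus of 1 mouse, taken when blood pressure is at its daily peak. The other 12 arrays came from the same strains at 26 weeks. No treatment or transgene was given for any group, and animals were not pooled. The strains differ at many places in the genome, so strain and blood pressure cannot be told apart. Replicates are separate mice, and n = 6 per group throughout.

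The hypothalamus sits at the base of the brain below the thalamus and holds small groups of neurons that release peptides, set sympathetic output, and control feeding, water balance, body temperature and sleep. Many of its neuron types are made under region-specific transcription factors that stay on in the adult. A dissected piece also holds glia, blood vessel cells and, at its upper edge, neighbouring thalamus. Values are RMA values, a summary of probe brightness on the log2 scale, and a difference of 1 is a doubling. A gene is called when limma's moderated test gave an adjusted p (Benjamini-Hochberg over all genes) below 0.05. Values of a group are given as its lowest, median and highest array, and differences are BPH/2J minus BPN/3J ± standard error.

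The RNA of all 12 arrays carried hypothalamic markers. Pmch, the precursor of melanin-concentrating hormone, lay between 11.44 and 12.73, and Nkx2-1, a transcription factor of the ventral forebrain, between 6.16 and 7.28; Agrp was not analysed here. Oxt, the oxytocin gene, had medians of 10.09 in BPH/2J and 9.50 in BPN/3J. The pituitary hormone genes Prl and Tshb had medians over the 12 arrays of 4.14 and 4.01, below the level of unnamed probe sets (array medians 4.69 to 4.85), while Gh, growth hormone, lay above that level on every array (5.31 to 6.27 in BPH/2J, 5.24 to 6.88 in BPN/3J) and did not pass the test. The choroid plexus gene Ttr ran from 6.70 to 11.95 in BPH/2J and from 6.85 to 9.69 in BPN/3J without passing the test. Thalamus was present as well: Tcf7l2, Lef1 and Prkcd, its defining markers here, had medians of 9.59, 8.15 and 10.98 over the 12 arrays.

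Thalamus markers differed with the strain, and 1 library stood apart. Of 20 thalamus markers 16 were lower in BPH/2J and 0 higher, against 4.42% lower and 2.99% higher of all genes. The list was chosen with earlier results of these data known. At 26 weeks 1 of the 20 was lower and 0 higher. At 6 weeks the marker mean read 9.39 to 9.72 on the BPN/3J arrays and 7.97 to 8.89 on 5 BPH/2J arrays. On BPH/2J replicate 2 it read 9.46, inside the BPN/3J range. Among 1479 genes called for strain, that replicate lay inside the BPN/3J range for 595 (40.2%), where the other 5 BPH/2J arrays did so for 23 to 119 (1.56% to 8.05%). In bulk tissue, fewer cells of a type and less RNA per cell cannot be told apart. Each gene list below is therefore counted also without BPH/2J replicate 2 and with the thalamus marker mean as a covariate, a fit whose median standard error was 0.13 against 0.09. A gene of that mean is adjusted in part for itself, so its shrinkage there is partly built in; Calb2, Rgs16, Prkcd and Ntng1 are such genes that also stand on other lists. Beside a limma count of 0, the count at an unadjusted p below the same threshold is given; over all genes that count was 3617 at 6 weeks (18.1%), 1618 with the covariate and 2488 at 26 weeks.

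**Figure D1:**
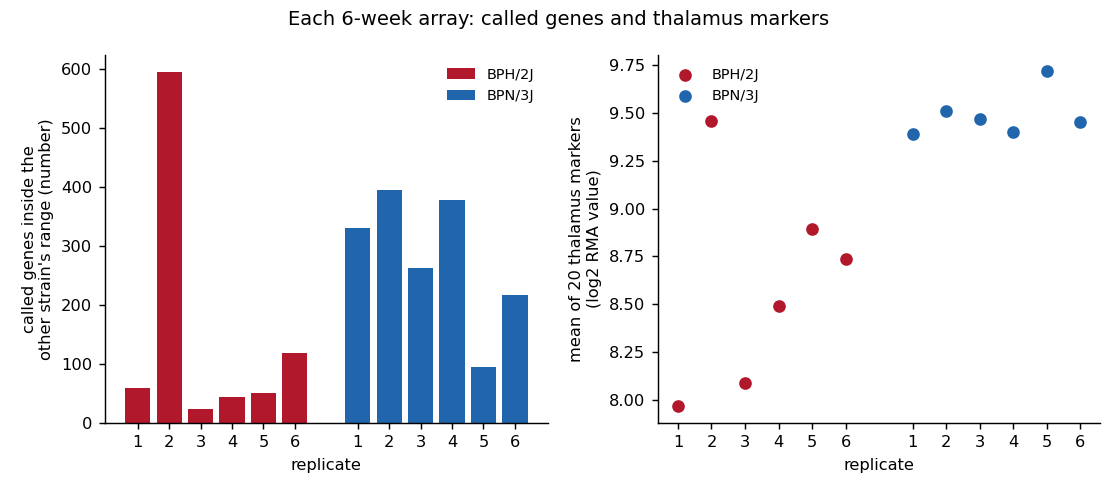
Left, the number of the 1479 called genes for which each 6-week array (replicates 1 to 6 of each strain) lies inside the range of the other strain. Right, the mean log2 RMA value of 20 thalamus markers on the same arrays. BPH/2J replicate 2 has 595 genes on the left and a marker mean of 9.46 on the right, among the BPN/3J arrays; it also widens the BPH/2J range into which BPN/3J arrays can fall.

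The question of the comparison is which hypothalamic genes differ between hypertensive and normotensive mice while young. Called genes were 7.42% of all genes (1479 of 19937), with 597 higher in BPH/2J (2.99%) and 882 lower (4.42%). Most differences were small: the median size among called genes was 0.40, the middle of the distribution ran from 0.30 to 0.58 between quartiles, and 1123 called genes (75.9%) differed by less than 1.5-fold. At least 1.5-fold apart were 356 called genes (1.79%), at least 2-fold 30 higher and 41 lower genes, and at least 4-fold 3 and 1. In 737 called genes, 3.70% of all, the arrays of the strains did not overlap, 339 of them higher and 398 lower. Called or not, 5.44% of genes had no overlap, 347 of them without a call. The median SD over all genes was 0.14 among BPH/2J arrays and 0.10 among BPN/3J arrays.

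Without BPH/2J replicate 2 there were 1961 called genes (9.84%), 813 higher (4.08%) and 1148 lower (5.76%), and 1442 of the 1479 were among them. With the thalamus marker mean as a covariate there were 180 (0.903%), 70 higher and 110 lower, of which 166 were among the 1479. A fit on only the 12 arrays gave 2322 (11.6%), with 1041 higher, and held 1440 of the 1479. Leaving out BPN/3J replicate 5 left 394 higher genes.

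**Figure D2:**
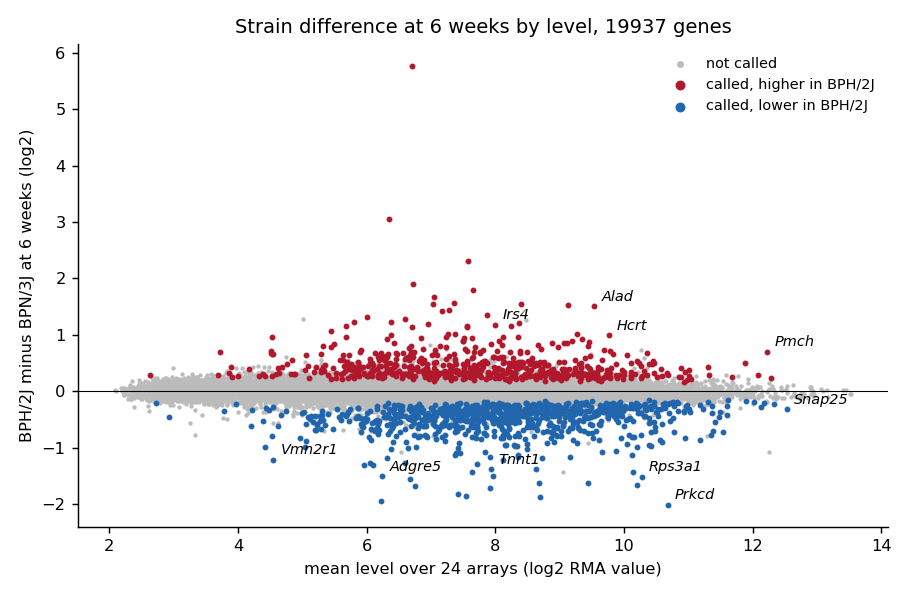
Each point is 1 of 19937 genes, with its mean log2 RMA value over 24 arrays on the horizontal axis and its BPH/2J minus BPN/3J difference at 6 weeks (log2) on the vertical axis. Red points are the 597 genes called higher, blue points the 882 called lower and grey points the rest; most coloured points lie close to 0, and the largest differences occur on both sides.

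Below the 8 leading genes in each direction, the next 12 higher genes without overlap began with a pair of neighbours. Alad, the delta-aminolevulinate dehydratase of haem synthesis, read 10.22, 10.36 and 10.53 in BPH/2J against 8.69, 8.90 and 9.0 in BPN/3J. Hdhd3, a predicted hydrolase of the haloacid dehalogenase family, read 7.94, 8.0 and 8.18 against 6.48, 6.59 and 6.65. In both genes every BPH/2J array lay more than 1 unit above every BPN/3J array, with differences of 1.51 ± 0.08 and 1.45 ± 0.08 (limma adjusted p = 1.02e-12 and 9.33e-13). Both stood apart by a similar amount at 26 weeks (1.38 and 1.54), and both kept their size with the thalamus covariate (1.37 and 1.38). The genes lie next to each other on the same strand, and 17459 bases separate the nearest of the windows before their starts.

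The sequences before the starts of this pair are shown because the genes moved together from separate starts. They are 250 bases upstream from RefSeq on GRCm38.p6, 5′ to 3′ on the minus strand of chromosome 4, with matches of GGGCGG on either strand in capitals. The first Alad window is chr4:62520064-62520313, the second, for a start further downstream, chr4:62519910-62520159, and the Hdhd3 window chr4:62502201-62502450.
Alad, first start: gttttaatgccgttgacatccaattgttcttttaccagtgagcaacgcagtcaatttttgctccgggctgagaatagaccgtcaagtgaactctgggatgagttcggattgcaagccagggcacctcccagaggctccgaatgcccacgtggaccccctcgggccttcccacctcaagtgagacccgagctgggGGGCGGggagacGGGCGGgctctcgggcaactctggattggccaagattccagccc
Alad, second start: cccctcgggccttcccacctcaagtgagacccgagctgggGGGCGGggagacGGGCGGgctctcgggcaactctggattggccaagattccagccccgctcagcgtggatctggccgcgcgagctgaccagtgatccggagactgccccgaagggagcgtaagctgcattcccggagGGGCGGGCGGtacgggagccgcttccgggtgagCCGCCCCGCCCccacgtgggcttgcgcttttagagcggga
Hdhd3: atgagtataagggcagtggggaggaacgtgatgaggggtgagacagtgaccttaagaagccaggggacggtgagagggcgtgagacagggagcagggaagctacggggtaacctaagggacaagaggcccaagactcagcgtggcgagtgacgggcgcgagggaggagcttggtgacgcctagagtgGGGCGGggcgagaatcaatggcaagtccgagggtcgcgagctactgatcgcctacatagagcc
The windows hold 2, 6 and 1 matches, counting overlapping ones, and 32.7% of 32851 RefSeq windows of this length hold at least 1. The Alad windows overlap, and the 2 matches of the first are among the 6 of the second. The windows are reference sequence, not that of the strains studied.

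Sec24d, a cargo-selecting subunit of the COPII coat of vesicles leaving the endoplasmic reticulum, read 7.45, 7.63 and 7.69 in BPH/2J against 6.19, 6.41 and 6.57 in BPN/3J. Its difference of 1.20 ± 0.07 (adjusted p = 1.09e-12) was 1.14 at 26 weeks. Hpgd, the 15-hydroxyprostaglandin dehydrogenase that inactivates prostaglandins, was higher by 1.23 ± 0.09 without overlap and by 1.39 at 26 weeks. Pop4, a protein subunit of RNase P, and Mrpl20, of the mitochondrial ribosome, were higher by 1.36 ± 0.12 and 1.16 ± 0.10, and the RIKEN transcript 4933407L21Rik by 1.22 ± 0.15. In these 5 genes BPH/2J replicate 2 lay with its own strain, as the absence of overlap requires. Plscr2, a phospholipid scramblase family gene, was higher by at least 1.11, a lower bound because BPN/3J values (4.46, 4.89 and 5.18) reached the level of unnamed probe sets.

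The other higher genes of these ranks held more spread. Sytl4, the Rab27-binding granuphilin of secretory granules, read 6.38, 7.37 and 7.51 in BPH/2J against 5.60, 5.96 and 6.21 (1.28 ± 0.22), and its lowest BPH/2J array, replicate 2, lay close to BPN/3J. Irs4, an insulin receptor substrate with high levels in hypothalamus, read 8.17, 8.90 and 8.99 against 7.07, 7.55 and 8.11 (1.18 ± 0.19), again with replicate 2 lowest. Ppp1r17, a protein phosphatase inhibitor, was higher by 1.31 ± 0.27. At 26 weeks these 3 stood at 0.41, -0.13 and 0.26, and none was called there.

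Mir692-1 closed the higher ranks and was the only one of 302 microRNA genes to be called (0.331%, against 7.42% of all genes). The median level of the 302 was 4.43, below that of unnamed probe sets (4.76 over all arrays). In the lowest quartile of mean RMA value 0.943% of genes were called. Mir692-1 read 7.79, 7.87 and 8.47 in BPH/2J against 6.62, 6.86 and 7.17 in BPN/3J, a difference of 1.14 ± 0.15 (adjusted p = 9.18e-06) without overlap. At 26 weeks it stood at 0.41, not called. Its RefSeq sequences are shown because the array probes the hairpin locus, not the mature RNA alone. The hairpin lies at chr17:6895229-6895337 (GRCm38.p6, minus strand); capitals mark the mature stretch in the hairpin and the seed, bases 2 to 8, in the mature sequence.
Mir692-1 hairpin: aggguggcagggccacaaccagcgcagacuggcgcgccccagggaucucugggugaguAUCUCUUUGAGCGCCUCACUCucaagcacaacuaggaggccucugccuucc
miR-692 mature: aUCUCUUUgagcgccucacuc
The same mature sequence is listed for 3 genes, Mir692-1, Mir692-2 and Mir692-3, of which 1 was analysed here, so which copy the probes read is uncertain.

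On the lower side the same ranks opened with Rps3a1, a protein of the small ribosomal subunit, at 8.70, 9.15 and 9.44 in BPH/2J against 10.37, 10.63 and 11.05 in BPN/3J. Its difference was -1.52 ± 0.19 (adjusted p = 5.76e-06) and -1.15 at 26 weeks; ribosomal protein genes have many near-identical copies, so the probes may read several. Adgre5, the adhesion G protein-coupled receptor CD97, read 5.15, 5.52 and 5.60 against 6.83, 6.99 and 7.03 (-1.50 ± 0.07, adjusted p = 1.88e-14). Padi2, the peptidyl arginine deiminase expressed in oligodendrocytes, read 7.06, 7.25 and 7.74 against 8.65, 8.73 and 9.20 (-1.50 ± 0.15). All 3 separated the strains by more than the range of either group, with BPH/2J replicate 2 on the side of its strain.

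Further lower genes were Bfsp2, a lens filament protein (-1.30 ± 0.12), and Alox8, a lipoxygenase (-1.27 ± 0.16), which were also lower at 26 weeks (-1.24 and -1.17). Cyp2j12, a cytochrome P450, was lower by at least 1.30 and stood at -0.27 at 26 weeks. The vomeronasal receptor gene Vmn2r1 was lower by at least 0.24 (measured -1.21 ± 0.18), since all 6 BPH/2J arrays lay at the level of unnamed probe sets. Chrna3, the nicotinic receptor alpha 3 subunit, was at -1.19 ± 0.32 (adjusted p = 0.0212), and was not called when replicate 5 of BPH/2J (-1.08, adjusted p = 0.0618) or replicate 1 (-1.12, 0.0511) or 5 (-0.99, 0.0749) of BPN/3J was left out.

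4 of the lower ranks, of which Rora and Tnnt1 are themselves among the 20 thalamus markers, followed the thalamus marker pattern across arrays. Rora, a retinoic acid receptor-related transcription factor, read 8.79, 9.38 and 10.25 in BPH/2J against 10.39, 10.46 and 10.68. Shisa6, an accessory protein of AMPA receptors, read 6.36, 6.44 and 7.47 against 7.51, 7.71 and 7.87. Adcy1, the calcium-stimulated adenylyl cyclase, read 7.86, 8.32 and 9.26 against 9.46, 9.52 and 9.95. The highest BPH/2J array was replicate 2 in each. Differences were -1.13 ± 0.17, -1.10 ± 0.14 and -1.17 ± 0.18, and with the thalamus covariate -0.29, -0.62 and -0.46, none called; for Rora, a member of the covariate's mean, that shrinkage is partly built in. Tnnt1, a troponin, was lower by -1.39 ± 0.14 and kept its call with the covariate (-0.75, limma adjusted p = 0.00037), although it is a member of that mean. Its BPH/2J replicate 2 read 7.59, apart from the lowest BPN/3J array at 8.17. At 26 weeks Tnnt1 was lower again (-0.97, called).

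**Figure D3:**
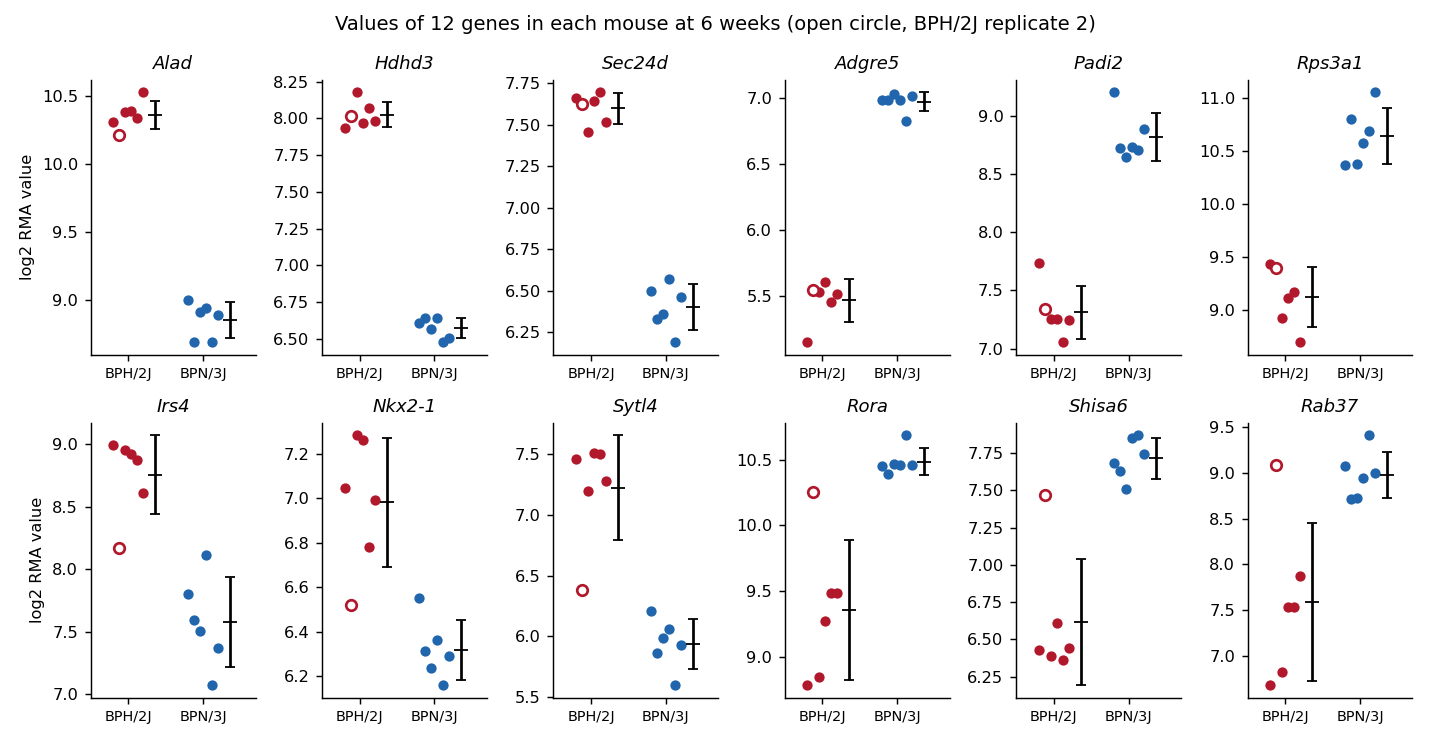
Log2 RMA values of 12 genes in each of 6 BPH/2J (red) and 6 BPN/3J (blue) mice at 6 weeks, with mean and SD in black and BPH/2J replicate 2 as an open circle. In the upper row, such as Alad (10.22 to 10.53 against 8.69 to 9.0), the open circle lies with its strain; in the lower row, such as Rab37 (9.08 in replicate 2), it lies at or near the BPN/3J arrays.

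Some differences below 1.5-fold were large relative to their standard error. Clns1a, a chaperone of spliceosome assembly also known as pICln, read 9.63, 9.69 and 9.73 in BPH/2J against 9.20, 9.29 and 9.35 (0.41 ± 0.05, adjusted p = 1.36e-05). Golt1b, a Golgi transport protein, was higher by 0.44 ± 0.06, Wfs1, the endoplasmic reticulum protein wolframin, by 0.51 ± 0.07 and Tmem43, a nuclear envelope protein, by 0.47 ± 0.07. In each the arrays did not overlap, which the naming rule required.

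On the lower side, Galt, the galactose-1-phosphate uridylyltransferase, read 7.61, 7.68 and 7.69 against 8.10, 8.16 and 8.28 (-0.52 ± 0.06, adjusted p = 2.56e-06). Pitrm1, a mitochondrial peptidase, was lower by -0.55 ± 0.06, Manba, the lysosomal beta-mannosidase, by -0.51 ± 0.07 and Decr2, a peroxisomal enzyme of fatty acid oxidation, by -0.50 ± 0.07. Zfp14, a zinc finger gene, and Nfe2l3, a basic leucine zipper factor, stood at -0.45 ± 0.06 and -0.52 ± 0.07. Galt, Manba, Zfp14, Pitrm1 and Decr2 were called at 26 weeks too, at -0.51, -0.48, -0.44, -0.39 and -0.36.

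Gene groups were counted over 41 lists with 1062 distinct genes, 192 of them called, and read against 2.99% higher and 4.42% lower of all genes. Those shares are not matched for level. Called genes were 0.943% of the lowest quartile of mean RMA value and 12.2% of the highest. Of 41 hypothalamic transcription factors 8 were higher and 3 lower, with a list median of 0.14 against 0.01 for all genes. Nkx2-1 read 6.52, 7.02 and 7.28 in BPH/2J against 6.16, 6.30 and 6.55 (0.66 ± 0.10, adjusted p = 0.000139). Tbx3, of arcuate neurons, read 6.48, 7.08 and 7.45 against 6.27, 6.40 and 6.60 (0.59 ± 0.12). In both the overlap came from BPH/2J replicate 2, the lowest of its group.

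Other members of that list, chosen after their values were seen, were Fezf1, a factor of the ventromedial hypothalamus (1.42 ± 0.35), Nr0b1, a nuclear receptor (1.07 ± 0.23, and at least 1.03 as a bound), Isl1, of arcuate neurons (0.89 ± 0.22), Bsx, needed for Npy expression (0.63 ± 0.14), and Nr5a1, which marks the ventromedial nucleus (0.51 ± 0.12). Lower were Foxp2, strong in thalamus (-0.65 ± 0.12), Mkx (-0.48 ± 0.10) and Lhx9 (-1.13 ± 0.26, also chosen after its values were seen). The list mean per array was 6.77 to 7.0 in BPH/2J, lowest in replicate 2, and 6.65 to 6.77 in BPN/3J. Without replicate 2, 10 were higher and 3 lower; with the thalamus covariate limma called 0 of 41 (10 at an unadjusted p), and at 26 weeks 0 of 41 (8 at an unadjusted p).

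Of 37 neuropeptide genes 9 were higher and 2 lower, and without BPH/2J replicate 2, 13 and 1. Ghrh, the growth hormone releasing hormone, read 6.76, 7.46 and 7.82 against 6.30, 6.66 and 7.06, lowest in replicate 2. With the thalamus covariate only Gal was called (1.62, against 1.56 ± 0.18 without it). Of 26 aminopeptidase and peptide processing genes 3 were higher and 2 lower. Ecel1, a neuron-specific peptidase of the neprilysin family, read 9.19, 9.60 and 9.66 against 8.20, 8.76 and 8.89 (0.85 ± 0.14), and Pam, which amidates peptides, was higher by 0.39 ± 0.08. Prep, prolyl endopeptidase, and Nln, neurolysin, which cleave short peptides, were lower by -0.36 ± 0.08 and -0.32 ± 0.08. Without BPH/2J replicate 2 the counts of this list were 4 and 4, and with the covariate limma called 0 (2 at an unadjusted p).

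Synaptic genes were called in both directions and more often lower. Of 44 genes of synaptic vesicles and release 4 were higher and 9 lower (5 and 12 without BPH/2J replicate 2; 0 with the covariate, 10 at an unadjusted p). Cplx1, a complexin that clamps fusion, read 10.63, 10.75 and 11.47 in BPH/2J against 11.31, 11.62 and 11.81 (-0.70 ± 0.12). Snap25, of the fusion complex, read 12.13, 12.30 and 12.52 against 12.51, 12.61 and 12.69 (-0.32 ± 0.06). The calcium sensor Syt7, chosen after its values were seen, stood at -0.63 ± 0.15. Higher were the vesicle proteins Syt5 (0.50 ± 0.09, no overlap) and Doc2b (0.52 ± 0.11).

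Of 28 postsynaptic scaffold genes 1 was higher and 5 lower, and 1 and 9 without BPH/2J replicate 2. Shank3, a scaffold of excitatory synapses, read 7.37, 7.92 and 8.59 in BPH/2J against 8.65, 8.75 and 9.05 (-0.84 ± 0.14), without overlap though replicate 2 came close. Dlgap3 and Shank1, its partners, were lower by -0.61 ± 0.10 and -0.37 ± 0.08. Of 28 neurofilament, tubulin and microtubule genes 6 were lower and 0 higher. The neurofilament heavy and medium chains Nefh and Nefm were lower by -0.60 ± 0.10 and -0.62 ± 0.13, and Ina, internexin, by -0.38 ± 0.08 (-0.61 when its probe sets were averaged). The neurofilament list again had 6 lower and 0 higher without BPH/2J replicate 2. With the thalamus covariate limma called 0 of either list (4 and 4 at an unadjusted p), and at 26 weeks 0 (1 and 3).

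Second-messenger genes split by member. Of 35 cyclic nucleotide genes 6 were lower and 1 higher: the cGMP-dependent kinase Prkg1 read 7.14, 7.43 and 7.64 in BPH/2J against 6.42, 6.73 and 6.82 (0.72 ± 0.11), while its relative Prkg2 was lower by -0.58 ± 0.12 and the phosphodiesterase Pde4d by -0.28 ± 0.06. Both directions were free of overlap. Of 32 protein kinase C, phospholipase C and diacylglycerol kinase genes 6 were lower and 2 higher. Prkcd, a kinase abundant in thalamus relay neurons, read 7.35, 9.47 and 11.30 against 10.94, 11.22 and 11.66 (-2.01 ± 0.40), and replicate 2 held the 11.30. Plcb4 was lower by -0.52 ± 0.11, and Dgkk, a diacylglycerol kinase, and Plce1 were higher by 0.70 ± 0.09 and 0.28 ± 0.07.

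Of 44 RGS and G protein genes 5 were higher and 5 lower. Rgs4, which shortens Gi and Gq signals, read 10.37, 10.54 and 11.28 in BPH/2J against 11.35, 11.51 and 11.81 (-0.87 ± 0.13), and was the member also lower at 26 weeks (-0.48 ± 0.13). Gnal, the olfactory and striatal stimulatory subunit, was lower by -0.53 ± 0.10, and Gna13 and Gnai2 were higher by 0.30 ± 0.07 and 0.27 ± 0.06. Of 27 calcium-binding proteins 4 were higher and 4 lower. Necab1 read 9.48, 9.83 and 10.71 against 10.51, 10.89 and 11.16 (-0.90 ± 0.18), with replicate 2 inside the BPN/3J range. Kcnip3, a potassium channel-binding calcium sensor, was lower by -0.39 ± 0.09 and at 26 weeks by -0.41 ± 0.09, and Rcn1, of the endoplasmic reticulum, was higher by 0.52 ± 0.10. Higher and lower counts without BPH/2J replicate 2 were 2 and 6 for cyclic nucleotide, 2 and 7 for protein kinase C, 5 and 6 for RGS and 4 and 4 for calcium-binding genes. With the thalamus covariate limma called 0 members of the cyclic nucleotide, protein kinase C, RGS and calcium-binding lists (5, 2, 2 and 9 at an unadjusted p).

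Axon guidance and adhesion genes also went both ways. Of 31 semaphorin, plexin and neuropilin genes 4 were higher and 1 lower: Sema7a, a membrane-anchored semaphorin, read 8.08, 8.51 and 9.09 in BPH/2J against 8.99, 9.34 and 9.61 (-0.79 ± 0.12), while Sema4f was higher by 0.42 ± 0.08. Of 21 ephrins and Eph receptors 2 were higher and 5 lower, with the ligand Efnb2 at 0.53 ± 0.12 and the receptors Epha4, Epha1 and Epha10 at -0.58 ± 0.14, -0.43 ± 0.09 and -0.37 ± 0.08 (Epha10 -0.22 over all its probe sets). Of 24 Slit, Robo, netrin and FLRT genes 4 were higher and 3 lower. The repellent Slit2 read 8.09, 8.66 and 8.94 against 7.38, 7.79 and 8.03 (0.81 ± 0.13), and the netrin receptors Unc5d and Unc5b stood at 0.59 ± 0.11 and -0.54 ± 0.09.

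Of 23 classical and type II cadherins 2 were higher and 2 lower, among them Cdh22 (0.42 ± 0.09), Cdh7 (-0.36 ± 0.07) and Cdh12 (-0.40 ± 0.10). Without BPH/2J replicate 2 the counts were 6 and 2 for semaphorins, 2 and 5 for ephrins, 5 and 3 for Slit and netrin genes, and 2 and 3 for cadherins. With the thalamus covariate limma called 0 members of these 4 lists (7, 3, 4 and 4 at an unadjusted p), and at 26 weeks 0 (4, 3, 2 and 4).

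Growth factor and hormone pathways held 1 to 4 called members in each direction. Of 27 leptin, insulin and IGF genes 3 were higher and 2 lower: Igf1, insulin-like growth factor 1, read 6.07, 6.37 and 6.67 in BPH/2J against 6.74, 6.98 and 7.16 (-0.61 ± 0.08, adjusted p = 1.18e-05), without overlap. Of 28 thyroid hormone and retinoid genes 2 were higher and 2 lower. Slco1c1, the thyroxine transporter of the blood-brain barrier, read 8.64, 8.90 and 9.02 against 9.31, 9.41 and 9.52 (-0.54 ± 0.11; -0.39 at 26 weeks, called), and Crabp1, which binds retinoic acid, was higher by 0.94 ± 0.19.

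Of 48 Wnt genes 1 was higher and 3 lower. Lgr5, a receptor of R-spondins, was lower by -0.62 ± 0.10 and the ligand Wnt3 by -0.61 ± 0.15 (0.05 with the thalamus covariate). Of 45 TGF beta and BMP genes 3 were higher and 4 lower, with the activin receptor Acvr2a at 0.31 ± 0.08, the activin subunit Inhbb at -0.42 ± 0.10 and the ligand Gdf11 at -0.30 ± 0.07. Leaving out BPH/2J replicate 2, higher and lower counts were 4 and 2 for leptin and IGF, 4 and 2 for thyroid and retinoid, 3 and 4 for Wnt and 3 and 4 for TGF beta genes. With the covariate limma called 0 members of the leptin and IGF, thyroid and retinoid, Wnt, and TGF beta lists (6, 5, 2 and 10 at an unadjusted p).

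Metabolic lists held 3 or 4 called genes each, 11.1% to 12.5% of their members. The share was 7.42% of all genes and 12.2% of genes in the highest quartile of mean RMA value. Of 27 cholesterol genes 3 were lower and 0 higher, including Cyp46a1, the neuronal 24-hydroxylase that removes brain cholesterol, at 9.38, 9.55 and 9.90 in BPH/2J against 9.99, 10.03 and 10.08 (-0.44 ± 0.09), and Pmvk, phosphomevalonate kinase (-0.31 ± 0.07). Of 36 fatty acid and sphingolipid genes 4 were lower and 0 higher. Galc, which degrades the myelin lipid galactosylceramide, read 6.91, 7.10 and 7.24 against 7.58, 7.70 and 7.78 (-0.61 ± 0.07, adjusted p = 2.96e-06), and was lower at 26 weeks (-0.50) and with the covariate (-0.65). Fads6 and Elovl7 were lower by -0.47 ± 0.09 and -0.67 ± 0.17.

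Of 24 glycolysis genes 1 was higher and 2 lower. The lactate dehydrogenase subunits moved apart: Ldha read 11.04, 11.23 and 11.30 against 10.67, 10.83 and 10.88 (0.41 ± 0.06), and Ldhb read 10.71, 10.76 and 10.91 against 11.01, 11.17 and 11.21 (-0.37 ± 0.07). Neither gene's arrays overlapped, but Ldhb stood at -0.07 when its probe sets were averaged. Pfkp, the platelet-type phosphofructokinase, was lower by -0.21 ± 0.05. The higher and lower counts without BPH/2J replicate 2 were 0 and 3 for cholesterol, 0 and 5 for fatty acid and 1 and 3 for glycolysis genes. With the covariate they were 0, 1 lower (Galc) and 0, and limma's cholesterol and glycolysis counts at an unadjusted p were 3 and 6.

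Genes of RNA and protein turnover held at most 2 called members in each direction of a list. Of 37 proteasome genes 2 were higher: Psmd6, a subunit of the regulatory particle, read 10.02, 10.13 and 10.17 against 9.26, 9.46 and 9.52 (0.67 ± 0.06, adjusted p = 9.22e-08) and stood at 0.59 at 26 weeks and 0.71 with the covariate, and Psme1, an activator subunit, at 0.32 ± 0.08. Of 38 heat shock and chaperone genes 1 was higher and 2 lower, with Hspa12a at -0.41 ± 0.09 and Hspa4l at -0.23 ± 0.05. Of 41 translation and exon junction genes 2 were lower; the helicase Eif4a3 read 5.94, 6.55 and 6.94 against 8.03, 8.38 and 8.92. Of 9 small nucleolar RNA host genes 1 was lower, Gas5, at 8.91, 9.22 and 9.37 against 10.74, 10.87 and 10.90, which is -1.66 ± 0.11 for its brightest probe set and -0.66 when its probe sets are averaged. Without BPH/2J replicate 2, higher and lower counts were 2 and 0 for proteasome, 3 and 4 for heat shock, 0 and 3 for translation and 0 and 1 for host genes. With the covariate limma called 1 higher proteasome gene, 1 lower translation gene, 1 lower host gene and 0 heat shock genes (3 at an unadjusted p).

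Of 33 cell cycle genes 2 were lower, Mcm6, of the replicative helicase (-0.82 ± 0.13), and Bub1b, of the spindle checkpoint (-0.67 ± 0.09). Both were lower at 26 weeks (-1.05 and -0.94) and with the thalamus covariate (-0.87 and -0.75), and in neither did the arrays overlap. The other 31 members were not called; without BPH/2J replicate 2 there were 3 lower and 0 higher.

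Among the other marker lists, oligodendrocyte and myelin genes were lower for 9 of 21 and higher for 0, and lower for 13 without BPH/2J replicate 2. Gjb1, connexin 32, read 6.85, 7.04 and 7.37 in BPH/2J against 7.22, 7.83 and 8.03 (-0.70 ± 0.16). The defining marker Mbp did not pass (-0.16 ± 0.08), nor did Mog (-0.47 ± 0.16). Of the list only Trf, transferrin, was called with the thalamus covariate, and 10 of 21 had an unadjusted p below the threshold. The named members Trf, Fa2h, Gjb1 and Opalin stood at -0.85, -0.77, -0.85 and -0.72 in that fit. Without the covariate they stood at -0.77, -0.74, -0.70 and -0.75. Cortex and hippocampus markers were higher for 2 of 18 and lower for 4: Slc17a7, the vesicular glutamate transporter also used in thalamus, was lower by -1.62 ± 0.30 and Prox1 by -0.79 ± 0.15, while the cortical marker Tbr1 stood at 0.19 ± 0.31. Striatum markers were higher for 2 and lower for 2 of 18, with Strip2 at -0.75 ± 0.12. With that replicate left out, higher and lower counts were 2 and 4 for cortex and 3 and 2 for striatum; with the covariate 1 cortex marker was higher, and limma called 0 striatum markers (3 at an unadjusted p).

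Of 21 microglia and macrophage markers 1 was higher and 3 lower, and C1qc, a complement subunit, read 6.83, 7.30 and 7.46 against 7.97, 8.05 and 8.13 (-0.81 ± 0.09) and was lower at 26 weeks (-0.55); Cx3cr1, P2ry12 and Csf1r did not pass (-0.15, -0.03 and 0.13). Endothelial markers were higher for 1 and lower for 2 of 21, with the transporters Slco1a4 at 0.52 ± 0.11 and Slc16a1 at -0.47 ± 0.08. Astrocyte and tanycyte markers were higher for 2 and lower for 1 of 19, choroid plexus and ependymal markers higher for 1 of 18, pituitary markers higher for 1 of 11 (Chga, chromogranin A, 0.54 ± 0.09, which neurons also make) and oligodendrocyte precursor markers lower for 1 of 12. Monoamine genes were higher for 1 of 18 and acetylcholine genes lower for 2 of 19, one of them the nicotinic subunit Chrna4 (-0.70 ± 0.16). Of 11 red blood cell genes only 4 were analysed, without haemoglobin genes such as Hba-a1 and Hbb-b1. Limma called 0 of 22 pericyte, smooth muscle and meningeal markers (3 at an unadjusted p). It called 0 of these 4 red blood cell genes and 0 of 12 lymphocyte genes (0 and 0). In the fit on only the 12 arrays the counts of the pericyte, red blood cell and lymphocyte lists were 0, 1 and 0. Without BPH/2J replicate 2 these 3 lists again had 0, and higher and lower counts were 0 and 3 for microglia, 1 and 2 for endothelial, 2 and 1 for astrocyte, 2 and 1 for choroid plexus, 2 and 0 for pituitary, 0 and 1 for oligodendrocyte precursor, 1 and 0 for monoamine and 1 and 2 for acetylcholine genes. With the covariate 1 microglia and 1 oligodendrocyte precursor marker were lower. Limma then called 0 of the endothelial, astrocyte, choroid plexus, pituitary, monoamine and acetylcholine lists (7, 4, 1, 1, 6 and 5 at an unadjusted p) and 0 of the pericyte, red blood cell and lymphocyte lists (0 in each). Except on replicate 2, the thalamus marker mean was lower on every BPH/2J array than on any BPN/3J array. The covariate fit therefore cannot fully tell strain and thalamus content apart. The part of thalamus content in these group counts was not tested in another way.

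**Figure D4:**
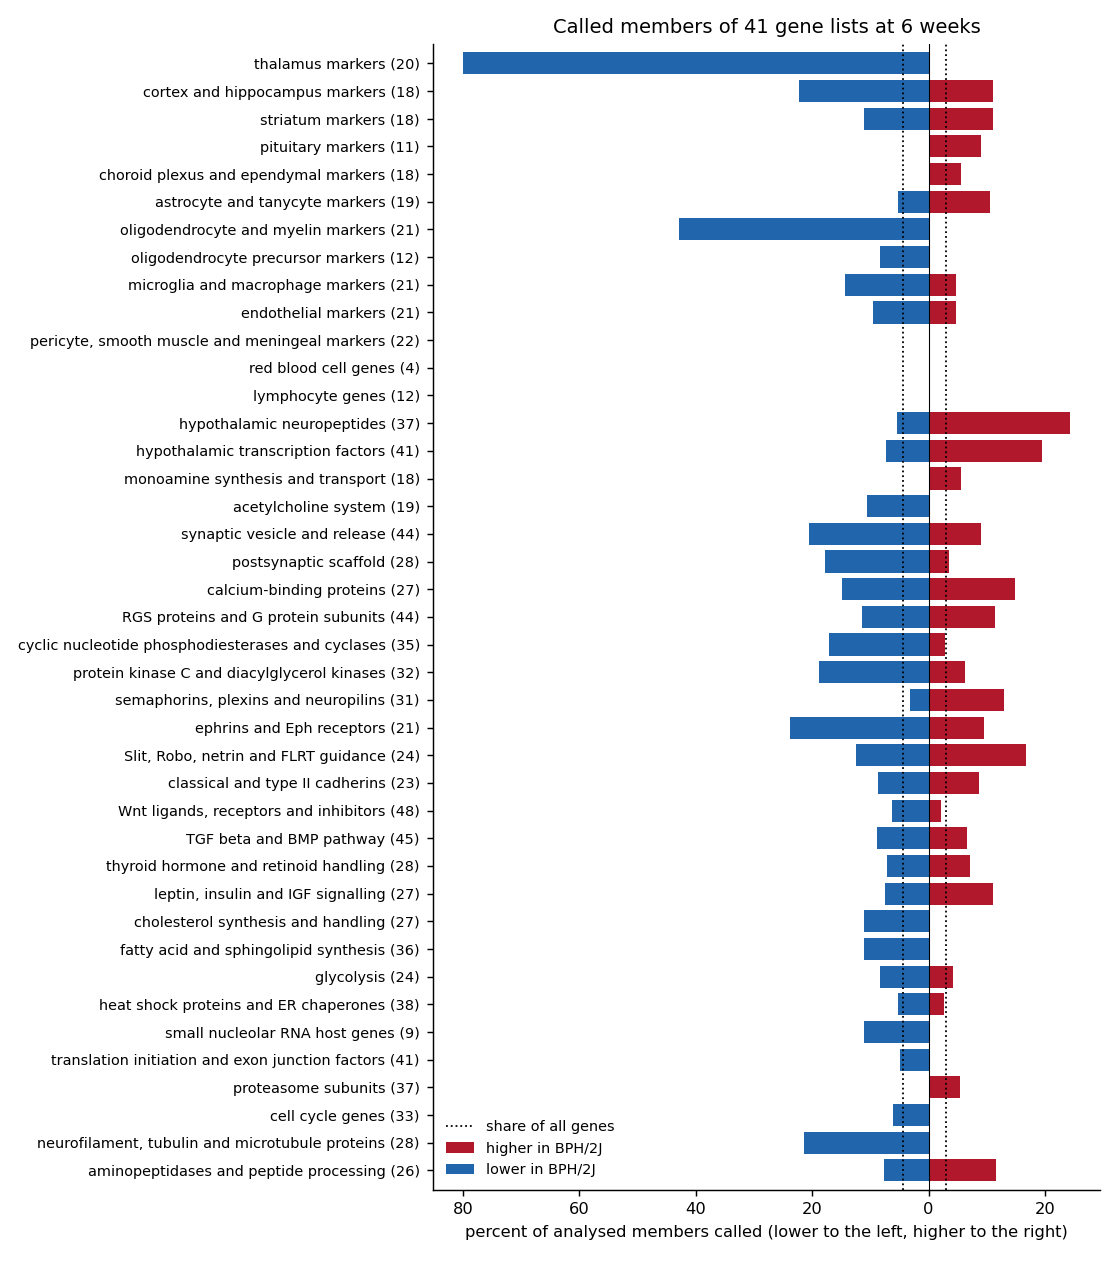
Percent of the analysed members of each of 41 gene lists (number of members in brackets) that were called lower (blue, left) and higher (red, right) in BPH/2J at 6 weeks; dotted lines mark the shares among all genes, 4.42% lower and 2.99% higher. Thalamus markers (16 of 20) and oligodendrocyte markers (9 of 21) have the longest bars to the left, and neuropeptides (9 of 37) and hypothalamic transcription factors (8 of 41) the longest to the right.

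The 26-week mice, which share no array with the 6-week comparison, give a second measurement of the same strains. There limma called 532 genes (2.67%), 1.32% higher and 1.34% lower, and 306 genes were called at both ages, which is 20.7% of the 6-week and 57.5% of the 26-week calls. Limma's array weights are lower for arrays that vary more. At 26 weeks replicates 5 and 6 of both strains had weights of 0.293 to 0.351, and the 6-week arrays 0.517 to 2.22. The part of this spread in the 26-week count was not tested. The direction matched in every one of the 306, of which 144 were higher and 162 lower. Of all 1479 genes 1115 kept their sign at 26 weeks, 79.1% of the higher and 72.9% of the lower ones.

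The 306 genes and the 1173 called at 6 but not at 26 weeks differed in how the arrays lay. Of the 306, 259 (84.6%) had no overlap at 6 weeks, and BPH/2J replicate 2 lay in the BPN/3J range for 12 (3.92%). Of the 1173, 478 (40.8%) had no overlap, and replicate 2 lay in that range for 583 (49.7%). With the thalamus covariate 127 of the 306 (41.5%) and 39 of the 1173 (3.32%) were still called. The median difference in the 6-week direction was then 0.50 and 0.23, against 0.51 and 0.38 without the covariate. The median standard error over all genes was 0.13 with it and 0.09 without it, so a lost call need not mean a smaller difference. The median size at 6 weeks was 0.51 and 0.38, and at 26 weeks, in the 6-week direction, 0.52 and 0.07; the last value follows in part from how the sets were chosen. These shares are a description of the 2 sets and were not compared by a test.

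**Figure D5:**
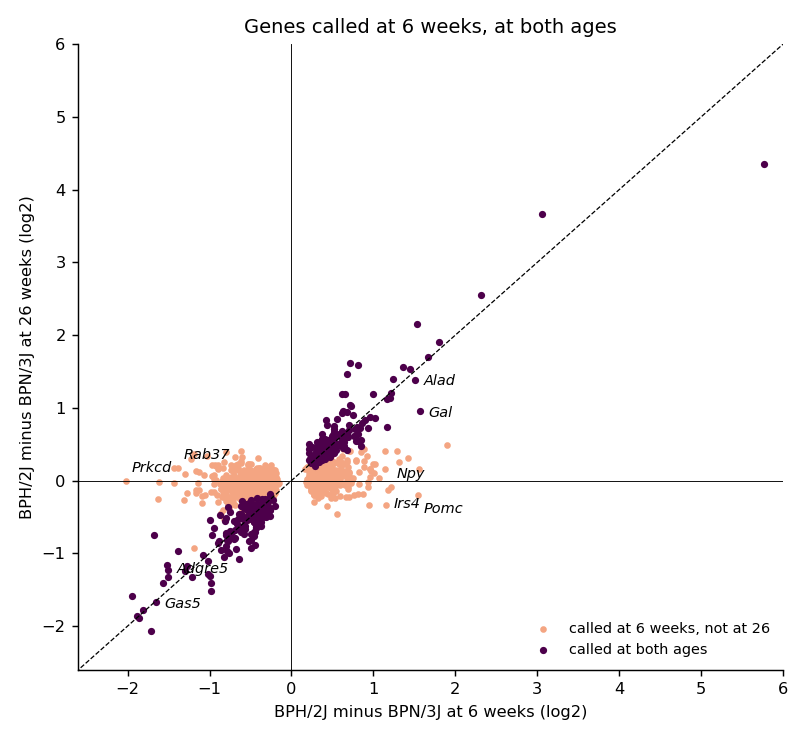
Strain difference (BPH/2J minus BPN/3J, log2) at 6 weeks on the horizontal and at 26 weeks on the vertical axis for the 1479 genes called at 6 weeks; the dashed line marks equal differences. The 306 genes called at both ages (dark) lie along the line in the same quadrants, and the 1173 others (light) form a band around 0 at 26 weeks.

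Among genes with the opposite sign at 26 weeks, the largest lower ones at 6 weeks had wide BPH/2J ranges. Rab37, a vesicle GTPase, read 6.68, 7.53 and 9.08 in BPH/2J against 8.72, 8.97 and 9.41 (-1.39 ± 0.25, and 0.17 at 26 weeks). Gabrd, the extrasynaptic GABA-A receptor delta subunit, read 6.34, 7.29 and 8.70 against 8.35, 8.47 and 8.80 (-1.23 ± 0.25, and 0.29). Ptpn3, a tyrosine phosphatase, and Shox2, a thalamic transcription factor, stood at -1.43 ± 0.33 and -1.17 ± 0.29, and at 0.18 and 0.14. In all 4 the highest BPH/2J array was replicate 2, inside or above the BPN/3J range, and with the thalamus covariate none was called, which for Shox2, a member of that mean, is partly built in. On the higher side Npy and Pomc, the peptide genes of arcuate feeding neurons, read 8.30, 9.21 and 10.003 against 7.43, 7.97 and 8.32, and 6.43, 7.90 and 8.46 against 5.95, 6.03 and 6.67. Their 26-week values were -0.09 and -0.20, and replicate 2 was the lowest BPH/2J array in both. The other large higher genes differed in spread. Scn7a had an SD of 0.78 in BPH/2J and 0.20 in BPN/3J, and Hdc one of 0.27 and 0.91. The SDs of Irs4 (0.32 and 0.36) and Asb4 (0.33 and 0.34) were similar in the strains.

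The difference between the ages was tested directly by the interaction. Limma called 6 genes (0.0301%), Coq8b, Dgkk, N4bp2, Ptpro, Slit2 and Srpx2, all among the 1479, and 2160 genes (10.8%) had an unadjusted p below the same threshold. The count was not stable: it was 496 with replicate 2 of BPH/2J left out, 3 with replicate 4 of BPN/3J, 0 with replicate 1, 3, 4 or 5 of BPH/2J, 0 with replicate 1, 3, 5 or 6 of BPN/3J, and 0 with the thalamus covariate (982 at an unadjusted p). With the replicate number as a block it was 49. A gene called at 6 and not at 26 weeks is therefore not shown to differ between the ages. For the 6 called genes, the call depended on which arrays were in the fit.

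Called genes were followed along the chromosome by another called gene in 148 of 1475 cases (10.03%, against 7.42% of all genes), in the same direction in 102. There were 8 runs of 3 or more neighbours called in 1 direction, all lower. The longest was the protocadherin beta genes Pcdhb5, Pcdhb6, Pcdhb7 and Pcdhb8, cell adhesion genes of a tandem cluster with similar sequences that probes may share. Pcdhb6 read 5.71, 6.01 and 6.19 in BPH/2J against 6.88, 6.99 and 7.12 (-1.01 ± 0.10), and the others stood at -0.39 ± 0.07, -0.39 ± 0.11 and -0.38 ± 0.11. Pcdhb7 was not called without BPH/2J replicate 3 (-0.37, adjusted p = 0.0527), nor Pcdhb8 when replicate 1, 3 or 5 of BPH/2J, or 2, 3 or 5 of BPN/3J, was left out (adjusted p up to 0.0759). At 26 weeks all 4 were lower again, from -0.48 to -1.28.

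In a run of cytokine receptor genes, Il10rb and Ifngr2, subunits of the interleukin 10 and interferon gamma receptors, were lower by -0.42 ± 0.08 and -0.86 ± 0.08. Ifngr2 read 8.78, 8.98 and 9.14 against 9.75, 9.86 and 9.90, and was lower by -0.95 at 26 weeks. Between them Ifnar1, of the interferon alpha receptor, stood at -0.23 ± 0.07 and was called, of the 12 fits that left out 1 array, in those leaving out replicate 1 of BPH/2J and replicate 3 of BPN/3J alone (adjusted p up to 0.102 in the others). A run of Pitrm1, Pfkp and Adarb2, a brain adenosine deaminase family member, held Adarb2 at 6.41, 6.73 and 7.27 against 7.55, 7.78 and 7.89 (-1.0 ± 0.12; -0.55 at 26 weeks). Fut10, a fucosyltransferase, began another run at -0.69 ± 0.09 (-0.79 at 26 weeks).

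Called shares differed widely among gene families of the array, beside 7.42% of all genes. Of 1027 olfactory receptor genes 1 was called, Olfr286, lower in BPH/2J with a size that these arrays do not bound, since all 6 BPH/2J arrays lay at the level of unnamed probe sets (it was not called when replicate 1, 3 or 5 of BPH/2J, or 1, 3, 4, 5 or 6 of BPN/3J, was left out, adjusted p up to 0.113). Of 167 vomeronasal receptor genes 1 was called. Median levels of the olfactory and vomeronasal families were 3.53 and 3.10, below that of unnamed probe sets (4.76 over all arrays). Zinc finger genes of the Zfp series were called for 8.36% of 347, solute carriers for 8.52% of 364 and G protein-coupled receptor genes of the Gpr series for 16.9% of 71, with 6 higher and 6 lower. By quartile of mean RMA value, which also depends on how each probe set responds, called shares were 0.943%, 5.82%, 10.7% and 12.2%.

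Among 1994 genes with a mean above 9.52, 79 were higher and 171 lower (12.5%). The largest higher ones were Alad, Hcrt, Baiap3, a vesicle-release protein of secretory neurons (9.98, 10.61 and 10.76 against 9.41, 9.79 and 10.09; 0.74 ± 0.16), and the expressed sequence AW551984 (0.72 ± 0.11). Hcrt was at 1.00 ± 0.29 and was not called when replicate 1, 3, 4 or 6 of BPH/2J, or 1, 2, 4 or 5 of BPN/3J, was left out (lowest value 0.88, adjusted p up to 0.103). The retinaldehyde dehydrogenase Aldh1a1, of similar size, was not called (0.73 ± 0.31, adjusted p = 0.180), with BPN/3J values from 8.52 to 10.79. The largest lower ones were Prkcd, Gas5, Rps3a1, Ptpn3 and Rora.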

How the data were processed

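Values were the deposited log2 values of 34760 probe sets, made by the authors with RMA and tested by them with limma, per the submitters' processing notes; tool versions and array annotation: not given in the sources used here. RMA makes the distributions of single probe values equal across arrays, so a shift of all genes is largely removed. Medians over probe sets still ran from 5.94 to 6.09 on the 6-week arrays. Sample titles gave group and replicate number; the series' design once names the normotensive strain with another suffix. Names came from the platform annotation: 21640 probe sets had 1 symbol, 1321 several and 11799 none, and only the first kind was used. RefSeq (GRCm38.p6) gave gene order and sequences and matched 19855 genes by Entrez identifier.

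Limma 3.58.1 (R 4.3.3) fitted a mean per group on all 24 arrays, with 20 residual degrees of freedom, Benjamini-Hochberg adjustment per contrast and a threshold of 0.05. The code was tested on simulated data. Arrays have no read depth; their number limits precision. A lower bound raises values below an array's median of unnamed probe sets to it.

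The genes, lists and thalamus covariate were chosen with earlier results of these data known. Named genes were ranks 9 to 20 by difference among called genes without overlap, and up to 4 called genes per list. Among called genes without overlap below 1.5-fold, the 6 largest in each direction relative to their standard error were named. Genes of up to 6 runs of neighbours were named, as were the 6 largest in each direction with opposite sign at 26 weeks. The 5 largest in each direction above the 90th percentile of level were named too. Alternatives were the fit on 12 arrays, centring, renewed quantile normalization, a filter on dim genes, the mean of all probe sets, trend with robust moderation, array weights, a replicate block, the thalamus covariate, and leaving out each array. Same-numbered mice of the strains deviated together at 26 weeks (correlations 0.13 to 0.44) but not at 6 weeks (-0.23 to 0.05), and the labels give no reason for pairing. No 2 arrays of a group were duplicates.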

Additional observations from a re-analysis of the deposited data

Results flagged for a closer look

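Among the named genes, an array was marked where it lay far from the other 5 of its group, with a gap above Dixon's critical value, as a share of the group's range. Of 386 groups tested 33 were marked, where chance marks about 1 in 20 (19.3). BPH/2J replicate 2 accounted for 11, BPN/3J replicate 5 for 9 and BPN/3J replicate 2 for 7. Values below are log2 RMA values, each with the range of the other 5 arrays.

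BPH/2J replicate 1 held Adgre5 at 5.15 (others 5.45 to 5.60) and Vmn2r1 at 4.07 (others 3.70 to 3.82). BPH/2J replicate 2 held Baiap3 at 9.98 (others 10.55 to 10.76), Gnal at 9.06 (others 8.38 to 8.55) and Nefm at 10.16 (others 9.16 to 9.49). It also held Pitrm1 at 8.76 (others 8.41 to 8.53), Prmt8 at 9.04 (others 7.82 to 8.25) and Psme1 at 9.24 (others 9.48 to 9.61). To these it added Rgs4 at 11.28 (others 10.37 to 10.70), Sema4a at 8.57 (others 8.89 to 8.99) and Shisa6 at 7.47 (others 6.36 to 6.61). There were further Strip2 at 8.24 (others 7.43 to 7.73) and Sytl4 at 6.38 (others 7.20 to 7.51). BPH/2J replicate 3 held Plscr2 at 6.41 (others 5.83 to 6.04). BPH/2J replicate 4 held Nrg1 at 6.84 (others 6.49 to 6.59). BPH/2J replicate 5 held Hcrt at 10.25 (others 10.86 to 11.21). BPN/3J replicate 1 held Foxp1 at 8.06 (others 8.34 to 8.43). BPN/3J replicate 2 held Adm at 6.49 (others 6.81 to 6.91), Gjb1 at 7.22 (others 7.78 to 8.03) and Ldhb at 11.01 (others 11.15 to 11.21). It also held Lgr5 at 6.17 (others 6.61 to 6.82), Olfr286 at 4.50 (others 4.75 to 4.82) and Opalin at 7.55 (others 8.13 to 8.40). To these it added Tyrobp at 5.88 (others 6.47 to 6.80). BPN/3J replicate 5 held Adcy1 at 9.95 (others 9.46 to 9.54), Adgre5 at 6.83 (others 6.98 to 7.03) and Ecel1 at 8.20 (others 8.64 to 8.89). It also held Gnal at 9.30 (others 9.01 to 9.11), Nexn at 8.27 (others 7.66 to 7.82) and Pdia4 at 9.03 (others 9.19 to 9.26). To these it added Plekhg1 at 10.08 (others 9.61 to 9.77), Rora at 10.68 (others 10.39 to 10.46) and Tnnt1 at 8.85 (others 8.17 to 8.40).

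The interaction test called 6 genes as changing their strain difference with age (limma, 26-week minus 6-week difference). These calls were not stable: the count was 0 to 496 when 1 array was left out and 0 with the thalamus covariate. Coq8b went from 0.48 at 6 weeks to -0.08 at 26 weeks, a change of -0.56 (adjusted p = 0.0459). Dgkk went from 0.70 at 6 weeks to -0.09 at 26 weeks, a change of -0.78 (adjusted p = 0.0286). N4bp2 went from 0.66 at 6 weeks to -0.22 at 26 weeks, a change of -0.88 (adjusted p = 0.0286). Ptpro went from 0.44 at 6 weeks to -0.35 at 26 weeks, a change of -0.78 (adjusted p = 0.0459). Slit2 went from 0.81 at 6 weeks to -0.18 at 26 weeks, a change of -0.99 (adjusted p = 0.0459). Srpx2 went from -0.69 at 6 weeks to 0.33 at 26 weeks, a change of 1.01 (adjusted p = 0.0313). All 6 had opposite signs at the 2 ages, with sizes at 26 weeks below those at 6 weeks.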

How the results depend on the processing

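Every named gene kept its sign in all 12 fits that left out 1 array, and 151 of 189 named called genes kept their call in each of them. Leaving out 1 array gave 1034 to 1961 called genes, 394 to 813 higher, 620 to 1148 lower, 263 to 309 called at both ages and 0 to 496 for the interaction. The fit on only the 12 arrays called 2322 genes with 1041 higher, and array weights 3725 with 1742 higher and 1983 lower. With each age fitted on its own arrays, 206 genes were called at both ages. The thalamus covariate left 180 genes, 70 higher and 110 lower, 135 called at both ages and 0 for the interaction. Interaction counts were 34 after renewed quantile normalization, 23 with the filter on dim genes, 31 with trend and robust moderation, 683 with array weights and 49 with the replicate block. That block changed the other counts by less than 1.5 times (1933 called at 6 weeks, 849 higher and 1084 lower), and the 6-week numbers do not pair the mice. The share of higher and lower calls moved little with centring (565 and 918) and with renewed quantile normalization (700 and 875). With the thalamus covariate 11 named genes changed sign: Acvr1c to 0.10, Cdh1 to -0.036, Gabrd to 0.015, Ntng1 to 0.13, Ptpn3 to 0.26, Ramp3 to 0.27, Rgs16 to 0.20, Shox2 to 0.31, Socs2 to 0.079, Wnt3 to 0.047 and Wnt9b to 0.013, none of them called. Ntng1, Ramp3, Rgs16 and Shox2 are members of that mean, so their shift is partly built in; for the others the causes were not tested. Dim genes have only bounds.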
